A study of Mus musculus with 36 samples.

Results

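ENSMUST00000139395.7 is a transcript of 1592 bases, 1 of the 115270 transcripts listed in each RNA-seq table of a study of mouse cortical neurons that lack Actl6b. It was chosen by a measured value, as most reduced in knockout (KO, Actl6b -/-) against wild-type (WT) neurons at rest. In the fit made here it had the smallest adjusted p of the 32904 transcripts tested between them, a rank that this choice favours. The tables used here pair gene identifiers with symbols but hold no transcript identifiers, and 0 of the 115270 identifiers matched them. The transcript is therefore left unnamed, and whether it is a transcript of Actl6b was not analysed here. For the same reason the genotype labels were not checked against Actl6b, and the neuronal identity of the cultures was not checked against marker genes.

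The RNA came from primary cortical neurons of E16.5 embryos, kept 7 days in vitro. The 5 WT and 7 KO cultures at rest were given TTX and APV for 2 h to block voltage-gated sodium channels and NMDA receptors. Another 3 groups were WT only: 5 libraries with 1 h of KCl and 2 h of TTX/APV, 4 with 7 h of TTX/APV alone, and 3 with 6 h of KCl and 7 h of TTX/APV. All groups thus had the blockers, and no KO library had KCl. The labels give neither the design of the knockout allele nor the strain or sex of the embryos. Each culture carries a code such as 3-4, and the series describes its 5 WT and 7 KO cultures as biological replicates.

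ACTL6B, also called BAF53b, is the actin-related subunit of the neuronal form of the BAF complex, which uses ATP to move nucleosomes. When neural progenitors leave the cell cycle, it takes the place of its close relative ACTL6A in the complex. Raised extracellular KCl depolarises neurons, lets calcium in and starts transcription of activity-dependent genes, early response genes before later ones. Silencing with TTX and APV beforehand lowers spontaneous activity, so that the response to KCl starts from a quiet state.

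Levels are given as counts per 1000000 (CPM), from the estimated count of the transcript over the total of its library. The libraries with 2 h of blockers held 5873349 to 8015063 estimated counts and those with 7 h held 3569516 to 4051922. The shallower libraries are thus all of the later set (7 h TTX/APV and 6 h KCl) and none of the others. The transcript was covered by 320 to 485 estimated counts in resting WT libraries, 335 to 424 after 1 h of KCl, 81.95 to 107 in the later set and 31.2 to 52.7 in KO.

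In resting WT neurons the transcript stood at 54.5 CPM in culture 3-4, 66.2 in 3-7, 56.9 in 4-2, 48.0 in 4-3 and 51.7 in 4-4. In the 7 resting KO cultures the lowest level was 4.86 CPM (4-7), the median 6.16 CPM (3-2) and the highest 8.13 CPM (3-5). The genotypes were far from overlapping, with the lowest WT culture well above the highest KO culture. The means were 55.5 ± 6.84 CPM in WT (SD, n = 5) and 6.11 ± 1.07 CPM in KO (SD, n = 7), so KO kept 11.0% ± 1.93 (SD, n = 7) of the WT mean and single KO cultures 8.76% to 14.7%. RNA was therefore still assigned to the transcript in every KO culture. In bulk RNA a lower level can come from fewer cells that hold the transcript or from less of it per cell, and these cannot be told apart here.

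The depth sets how finely the residual level can be read. The exact (Clopper-Pearson) 95% interval of a single KO library, which covers counting error only, ran from 6.12 to 10.7 CPM in culture 3-5, the highest, and from 3.31 to 6.84 CPM in culture 4-7, the lowest. The intervals of these 2 extreme KO cultures overlapped. The lowest interval of a resting WT library, in culture 4-3, ran from 43.2 to 53.2 CPM. Among KO cultures the SD was 1.12 times the SD that counting alone would give, so the 7 residual levels varied little more than counting error would give. Among resting WT cultures it was 2.42 times that SD, and after 1 h of KCl 1.18 times. Culture 3-7 at rest is the high point of the WT group.

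**Figure D1:**
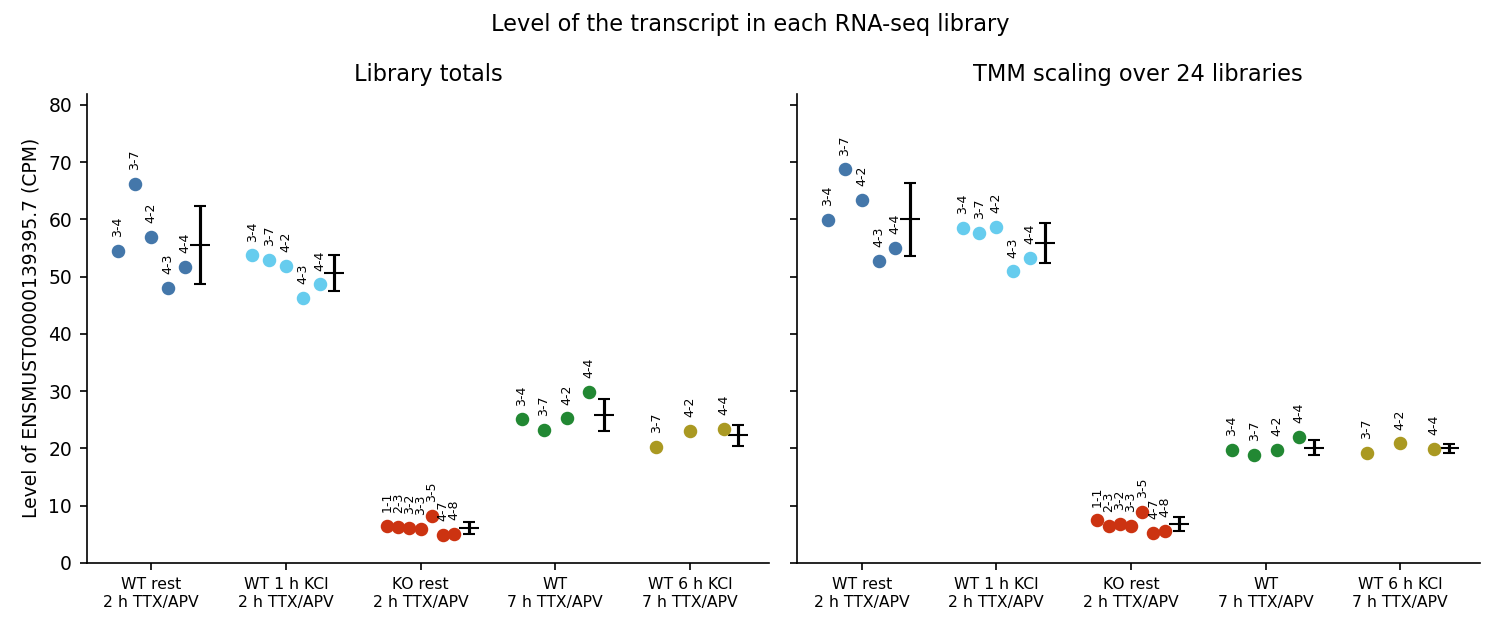
Level of ENSMUST00000139395.7 in CPM (vertical axis) in each of the 24 RNA-seq libraries, by group (horizontal axis), with library totals as the base on the left and TMM scaling over all 24 libraries on the right. Points are libraries with their culture codes, and the black bars give the mean and SD; the KO libraries lie lowest (4.86 to 8.13 CPM by library totals), the later set of WT libraries between them and the other WT libraries.

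The values of the contrast that chose the transcript are given here as a description, without a test. Its log2 fold change in KO was -3.17 (SE 0.129, edgeR), a level 9.02-fold lower (interval 7.42 to 10.9). The choice was made on these same libraries and favours a large fall, so the interval does not measure its certainty. The adjusted p (edgeR, quasi-likelihood test, Benjamini-Hochberg) is used here only to put transcripts in order. Of all transcripts tested, 1.63% were called lower in KO at an adjusted p under 0.05, and in 2.24% every KO library lay below every WT library. The transcript next in order had an adjusted p of 3.26e-04 and was higher in KO, at 50.6 CPM in KO against 21.6 in WT. The transcript next in order with a lower level in KO had a log2 fold change of -1.02 and an adjusted p of 4.52e-04.

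By size the transcript was not the most reduced. There were 8 transcripts with a lower log2 fold change in KO, 4 of them called, which makes it the fifth among the called ones. Of those 4, the highest in WT went from 27.2 to 0.607 CPM, with a log2 fold change of -5.45 and an SE of 1.10, against 0.129 for ENSMUST00000139395.7. It fell by 49.4 CPM, which ranked 217 among all falls in mean CPM. Of all transcripts tested, 14.4% had a smaller SE than it did. Among the 429 transcripts called lower with a WT mean of at least 20 CPM, 3 had a log2 fold change of -2 or less, and it was 1 of them.

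On a scale that takes length into account, the deposited transcripts per 1000000 (TPM), the transcript stood above 98.0% to 98.6% of all listed transcripts in resting WT libraries. In KO libraries it stood above 84.3% to 89.2%. Its TPM was 58.8 ± 7.32 in WT (SD, n = 5) and 6.18 ± 1.23 in KO (SD, n = 7). Among transcripts with a TPM over 0, it stood above 96.2% to 97.4% in resting WT and above 69.8% to 78.7% in KO. Its effective length, which kallisto derives from the fragment lengths of a library, was 1386 to 1403 bases in WT and 1373 to 1393 bases in KO.

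The first number of the culture code was treated as a possible batch, since its meaning is not stated in the labels. Among cultures whose code starts with 3, the mean was 6.73 CPM in 3 KO and 60.3 CPM in 2 WT cultures, a log2 ratio of -3.16. Among those starting with 4 it was 4.97 CPM in 2 KO and 52.2 CPM in 3 WT cultures, a log2 ratio of -3.39. Since every KO culture lay below every WT culture, each subset had to show a fall, and only its size is read from these values. Cultures 1-1 and 2-3 are KO cultures without a WT culture of the same first number, and stood at 6.43 and 6.21 CPM, within the range of the other KO cultures.

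**Figure D2:**
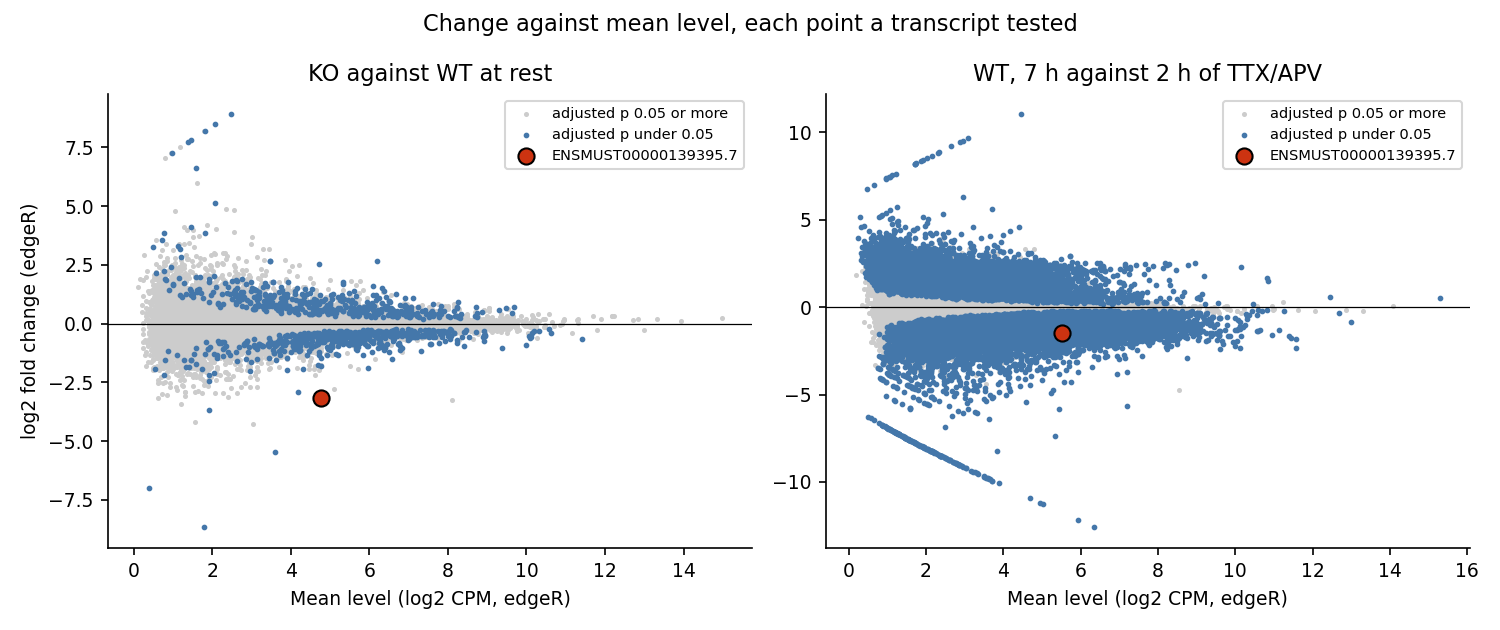
Log2 fold change (vertical axis, edgeR) against mean level (horizontal axis, log2 CPM) of each transcript tested, for KO against WT at rest on the left and for 7 h against 2 h of TTX/APV in WT on the right; blue points passed an adjusted p of 0.05. ENSMUST00000139395.7 (red) lies among the lowest log2 fold changes on the left, at -3.17, and among many other changed transcripts on the right, at -1.48.

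The comparison of 1 h of KCl with rest asked whether the transcript follows early activity. After 1 h of KCl it stood at 53.7 CPM in culture 3-4, 52.9 in 3-7, 51.8 in 4-2, 46.3 in 4-3 and 48.6 in 4-4, a mean of 50.7 ± 3.11 CPM (SD, n = 5). The ranges overlapped: resting cultures 3-4, 3-7 and 4-2 lay above all KCl cultures, and resting cultures 4-3 and 4-4 lay within their range. Set against the resting library of the same code, the level after KCl was lower in 5 of 5 codes by CPM, with library totals or TMM scaling, and in 3 of 5 by TPM. The difference of the means was smaller than the spread of the resting cultures and did not pass the test (log2 fold change -0.12, SE 0.0851, edgeR adjusted p = 0.588). With the culture code as a replicate block it was -0.11 (SE 0.0576, edgeR adjusted p = 0.415). The 95% interval without the block, -0.30 to 0.07, leaves room for a level after KCl between 0.809 and 1.05 times that at rest. In this comparison 4.54% of the 31673 transcripts tested were called, and 27.7% had a smaller absolute log2 fold change than this one. Stability with 1 h of KCl was named beforehand, with earlier results of these data known. The resting WT libraries also served to choose the transcript. A transcript chosen for a high WT level against KO tends to have a high resting value by that choice, and the 1 h KCl libraries did not enter it.

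All 5 cultures with 1 h of KCl lay far above the KO cultures, with a mean 8.29 times the KO mean. The KO libraries served to choose the transcript, and the share of all transcripts separated in this way was not determined. WT neurons given KCl for 1 h held the transcript at a mean near that of resting WT neurons. By code it was lower after KCl in 5 of 5 by CPM and in 3 of 5 by TPM. As no gene could be named, early response genes were not checked in these libraries. On the TPM scale the level was 56.6 ± 3.74 after 1 h of KCl (SD, n = 5) against 58.8 ± 7.32 at rest (SD, n = 5). Among cultures with a code starting with 3 the log2 ratio of mean CPM to rest was -0.18, with 2 cultures in each group, and among those starting with 4 it was -0.09, with 3 in each.

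The later set of WT libraries held less of the transcript. After 7 h of TTX/APV it stood at 25.1 CPM in culture 3-4, 23.3 in 3-7, 25.2 in 4-2 and 29.8 in 4-4, a mean of 25.9 ± 2.81 CPM (SD, n = 4). Every one of these lay below every WT culture with 2 h of TTX/APV and above every KO culture. Compared with 2 h of blockade in WT, the log2 fold change was -1.48 (SE 0.109, interval -1.72 to -1.23, edgeR adjusted p = 8.26e-06), a level 2.79-fold lower. Of the 35933 transcripts tested, 54.0% were called in this comparison and 25.7% were called lower. In 15.7% all 7 h libraries lay below all resting WT libraries. That share was not determined against the 1 h KCl or KO libraries. A fall here is shared with the 25.7% called lower, while the median log2 fold change of all tested was -0.03. A lower log2 fold change than that of this transcript was seen in 12.1%. The resting WT libraries that chose the transcript enter this comparison too. A fall in the later set was also named beforehand, with earlier results of these data known. Its adjusted p therefore describes the fall and is not independent evidence of it.

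The size of that fall depends on the scaling, more than for any other comparison made here. On CPM by library totals the 7 h mean was 2.15-fold below rest. With TMM scaling over all 24 libraries the level was 59.99 ± 6.43 CPM at rest (SD, n = 5) and 20.1 ± 1.36 CPM at 7 h (SD, n = 4), 2.98-fold lower. In edgeR the log2 fold change was -1.08 with library totals alone and -1.48 with TMM, while the median over all transcripts tested moved from 0.37 to -0.03. Relative to that median the transcript was at -1.45 under both scalings. With DESeq2 the log2 fold change was -1.65 and without a filter on low counts -1.69, where the medians of all transcripts were 0.27 and 0.22. Relative to these medians the transcript was lower, at -1.92 and -1.91. The DESeq2 fit had no such filter either, so both medians include low-count transcripts that the other fits left out. With DESeq2 size factors in edgeR and the filter kept, the log2 fold change was -1.55, and -1.45 relative to the median. The direction and the call were the same under each of these settings.

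Several properties of the libraries moved with the fall. Scaling factors (TMM) were 0.902 to 0.970 in resting WT libraries and 1.25 to 1.38 in the 7 h libraries. A single transcript of 449 bases, which had the highest TPM in all 24 libraries, took 2.42% to 3.27% of counts and 13.8% to 18.1% of TPM in resting WT libraries. In the 7 h libraries it took 3.97% to 7.40% of counts and 21.6% to 35.2% of TPM. In the resting KO libraries it took 2.56% to 4.34% of counts and 15.0% to 23.5% of TPM, which overlapped both of these groups. Library totals were lower in the 7 h libraries as well, as given above. The part of these differences in the fall was not tested, and the set of libraries and the time in the blockers cannot be told apart. The effective length of the transcript, 1380 to 1401 bases at 7 h, was near that at rest, and with effective lengths as an offset the log2 fold change was again -1.48. Transcripts of 1040 to 2565 bases, its class when all listed lengths are cut at their quartiles, had a median log2 fold change of -0.18 at 7 h, with 2959 called lower and 2815 higher of 10282.

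By the first number of the code, the sizes of the fall were as follows; its direction in each subset is fixed by the groups not overlapping. Among cultures with a code starting with 3 the means were 24.2 CPM at 7 h and 60.3 CPM at rest, a log2 ratio of -1.32 with 2 cultures in each group. Among those starting with 4 they were 27.5 CPM in 2 cultures and 52.2 CPM in 3, a log2 ratio of -0.92. Both are ratios of CPM by library totals and so belong with the smaller of the falls given above.

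A further comparison set 6 h of KCl against 7 h of TTX/APV, the control with the same time in the blockers, and none of these libraries served to choose the transcript. After 6 h of KCl it stood at 20.2 CPM in culture 3-7, 23.1 in 4-2 and 23.4 in 4-4, a mean of 22.2 ± 1.75 CPM (SD, n = 3). Cultures 3-7 and 4-2 lay below all 7 h controls, and culture 4-4 lay just above the lowest of them. By library totals or TPM the level was lower than in the control library of the same code in 3 of 3 codes, and with TMM scaling in 1 of 3. With TMM scaling over the 24 libraries the level was 19.97 ± 0.848 CPM (SD, n = 3) against 20.1 ± 1.36 CPM in the control (SD, n = 4). No difference passed the test (log2 fold change -0.03, SE 0.127, edgeR adjusted p = 0.908), with an interval of -0.33 to 0.27, or 0.797 to 1.20 times the control.

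In that comparison 15.3% of the 33196 transcripts tested were called, and 3.28% had a smaller absolute log2 fold change. The transcript thus lay near the centre of the distribution in neurons in which many others had responded. With library totals alone the log2 fold change was -0.23, and the median over all transcripts was -0.23 too. On the log2(CPM + 1) scale the difference was -0.21 (two-sided exact permutation p = 0.0857, where the smallest possible is 0.0286). The depth of 3627450 to 4051922 estimated counts after 6 h of KCl gives counts of 81.95 to 86.9 for the transcript. With these 3 and 4 libraries the data allow a difference anywhere within the interval above. The smallest detectable difference was not determined.

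Whether the responses to KCl at the 2 times differ was tested directly. The response at 6 h minus that at 1 h was 0.08 on the log2 scale (SE 0.135, interval -0.20 to 0.37, edgeR adjusted p = 0.804), where 8.66% of 46790 transcripts were called. A change in the response of the transcript between the times was not detected.

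**Figure D3:**
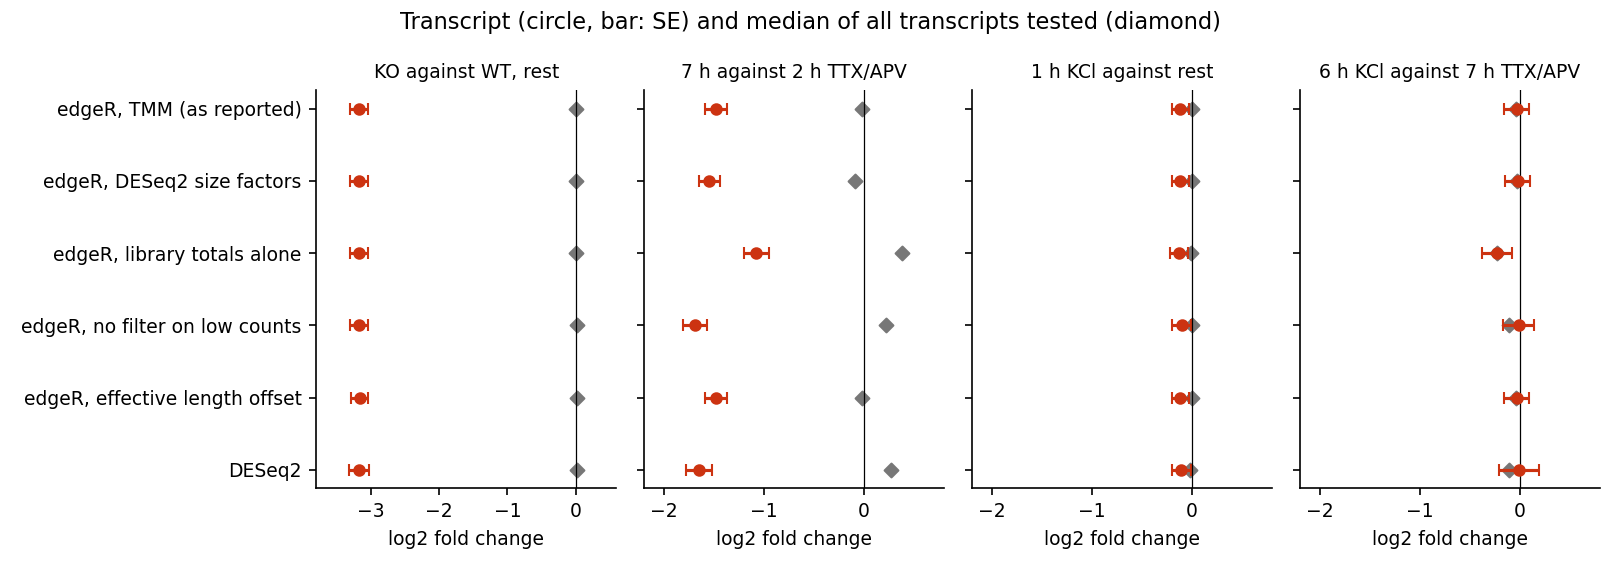
Log2 fold change (horizontal axes) of ENSMUST00000139395.7 (circles, bars for the SE) and the median of all transcripts tested (diamonds) under 6 ways of scaling or filtering (rows), in 4 comparisons. The KO values stay near -3.17, the 7 h values range from -1.69 to -1.08 and move with the median under library totals, and the circles of both KCl comparisons lie near the median.

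In order of level by library totals, resting WT cultures came highest (55.5 CPM), then WT with 1 h of KCl (50.7), WT with 7 h of TTX/APV (25.9), WT with 6 h of KCl (22.2) and KO (6.11). The means of resting and 1 h KCl cultures differed by less than the SD at rest. The means of 7 h TTX/APV and 6 h KCl cultures differed by more than either SD by library totals, by less with TMM scaling, and the ranges overlapped. The ranges of 1 h KCl and 7 h TTX/APV did not overlap, nor did those of 6 h KCl and KO. How many of all transcripts were separated in the same way was not determined, and the KO libraries served to choose this one. The KO mean was 4.23 times below that at 7 h of TTX/APV by library totals and 3.00 times with TMM scaling. No KO library belongs to the later set, so these values stand side by side without a test.

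The pattern of the transcript over all 24 libraries was then set against 40312 others with a mean of at least 1 CPM, by the Pearson correlation of log2 CPM. These correlations are descriptions: the groups differ strongly, the libraries of a group share their treatment, and the KO libraries that chose the transcript are among them. The median correlation was -0.0017, and 11 transcripts reached 0.9. The highest, 0.948, was that of ENSMUST00000134490.7, a transcript of 4728 bases. Its level was 97.6 to 122 CPM in resting WT, with a mean of 107 ± 9.58 CPM (SD, n = 5), and 18.5 to 43.8 CPM in KO, with a mean of 28.7 ± 8.47 CPM (SD, n = 7).

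With 1 h of KCl, ENSMUST00000134490.7 had a mean of 95.8 ± 10.3 CPM (SD, n = 5), and the difference from rest did not pass the test (log2 fold change -0.15, edgeR adjusted p = 0.452). It stood at 59.4 ± 8.75 CPM after 7 h of TTX/APV (SD, n = 4; log2 fold change -1.23 against 2 h, edgeR adjusted p = 5.31e-05). The 6 h KCl cultures had 52.7 ± 12.1 CPM (SD, n = 3). Its log2 fold change in KO was -1.90, smaller in size than that of ENSMUST00000139395.7. In KO culture 3-5 both transcripts had their highest KO level and in culture 4-7 both had their lowest by CPM. After group means were removed, the correlation over the 24 libraries was 0.573. ENSMUST00000134490.7 was taken for its correlation over these same libraries, so a likeness within groups is favoured by that choice.

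The lowest correlation, -0.899, was that of ENSMUST00000114641.7, a transcript of 9827 bases. Its resting level was 52.4 ± 6.08 CPM in WT (SD, n = 5) and 96.4 ± 9.53 CPM in KO (SD, n = 7), with a log2 fold change of 0.88. With 1 h of KCl it had 52.5 ± 4.61 CPM (SD, n = 5), and after 7 h of TTX/APV 95.7 ± 16.3 CPM (SD, n = 4), a log2 fold change of 0.49 against 2 h (edgeR adjusted p = 0.0103). With group means removed its correlation with ENSMUST00000139395.7 was 0.0372, so the opposite pattern lay between groups.

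**Figure D4:**
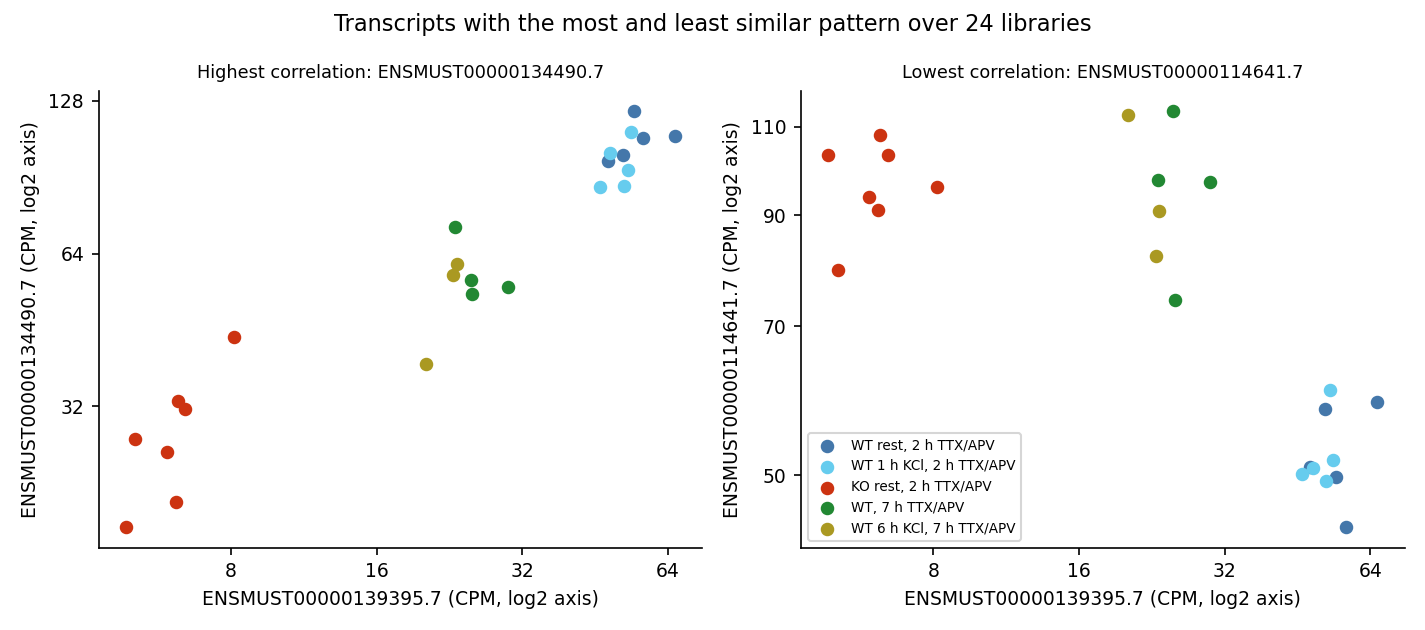
Level of the transcript with the highest (left) and the lowest (right) correlation over 24 libraries (vertical axes, CPM on a log2 axis) against that of ENSMUST00000139395.7 (horizontal axes, CPM on a log2 axis), one point per library, coloured by group. On the left KO libraries lie at the lower end of both axes and the later WT set in between; on the right KO and the later set overlap on the vertical axis, above the other WT libraries.

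Without the later set, over the 17 libraries with 2 h of blockers, 158 transcripts reached a correlation of 0.9. All of the 20 most alike were called lower in KO, which the choice by correlation fixes, and their median log2 fold change was -1.02, with -2.03 as the lowest. None of them came near the -3.17 of ENSMUST00000139395.7. In the comparison of 7 h with 2 h of TTX/APV, 16 of these 20 were called lower and 0 higher. Of all transcripts tested, 25.7% were called lower and 54.0% in either direction. The median log2 fold change of the 20 was -0.98 against -0.03 over all transcripts tested. Of the 20 most alike over all 24 libraries, 8 of which are in both lists, 10 were called lower and 0 higher in that comparison, with a median of -0.37. The comparison shares the resting WT libraries with both choices, and the second list was chosen on the 7 h libraries too. These counts are therefore descriptions and no test of the lists. After 6 h of KCl, in libraries outside the choice of the first list, 4 of its 20 were called lower and 3 higher, with a median of -0.16, where 6.88% and 8.46% of all transcripts tested were.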

How the data were processed

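Per the file headers, the deposited RNA-seq tables give for each transcript its length, effective length, estimated count and TPM. Tools listed in the submitters' processing notes, with no step given, are bedtools, Bowtie2, DESeq2, kallisto 0.44.0, MACS2 and Trim Galore; the annotation release was not given in the sources used here. Stranded libraries were made from total RNA, per the labels' protocols. A transcript's estimated count also depends on how reads were shared among similar transcripts, so a change can be one of assignment. The 12 ATAC-seq libraries were not used, because the transcript has no position in the tables used here.

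Estimated counts were rounded and tested per transcript with edgeR 4.0.16 in R 4.3.3 (TMM, filterByExpr by group, robust quasi-likelihood F-test, Benjamini-Hochberg adjustment over all transcripts tested, threshold 0.05), with only the groups compared in each fit. The script was tested on simulated data. The SE is the log2 fold change over the square root of F, and intervals are at 95%. Likeness used log2 CPM with a prior count of 2, and the rule for named transcripts took 1 with the highest and 1 with the lowest correlation. Alternatives were DESeq2 1.42.0 (without filterByExpr), other scalings, no filter, effective lengths and all 24 libraries in one fit. Further ones were culture code terms, exact permutation tests with a pseudocount of 1 and leaving out each library. The transcript and these rules were chosen with earlier results of these data known.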

Additional observations from a re-analysis of the deposited data

How the results depend on the processing

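Every call on ENSMUST00000139395.7 and, for KO against WT and 7 h against 2 h of TTX/APV, its direction were kept under each alternative run. KO against WT chose the transcript, and every KO library lay below every WT library. Its direction there was therefore fixed and its call favoured by the choice, so only the size is read. Leaving out 1 library at a time gave log2 fold changes of -3.24 to -3.11 in KO, -0.16 to -0.07 for 1 h of KCl and -1.55 to -1.40 for 7 h of TTX/APV. For 6 h of KCl it gave -0.073 to 0.0098, turning above 0 without the 7 h TTX/APV library 4-4 (0.0098) or the 6 h KCl library 3-7 (0.0047). With library totals alone the 6 h minus 1 h response was -0.0933 in place of 0.08. Neither value was called under any setting.

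With the culture code as a replicate block the log2 fold changes were -0.11 for 1 h of KCl, -0.04 for 6 h of KCl, -1.52 for 7 h of TTX/APV (edgeR adjusted p = 0.00233) and 0.07 for the difference of responses. What a code marks is not stated, and deviations of libraries with the same code correlated at -0.03 to 0.06. A library's best match had its own code in 3 of 5 cases between rest and 1 h of KCl, 3 of 3 in the later set and 2 of 4 between rest and 7 h.

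Counts of called transcripts, the background here, moved more. For KO the 966 became 1896 by DESeq2 and 456 without a filter. It was 439 without WT library 4-2, 474 without 4-4, 511 without 3-4 and 517 without 3-7, and leaving out KO library 4-7 gave 530 and 3-2 gave 581. For 1 h of KCl the 1438 became 2712 by DESeq2, 2294 with all libraries in one fit and 656 with the block. For 6 h of KCl the 5091 became 812 with the block, 3376 without the 7 h library 3-4 and 3054 or 3055 without the 6 h KCl library 3-7 or 4-2.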
